A study of Mus musculus with 14 samples.

Results

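Ribosomal protein genes and their pseudogene copies were followed in messenger RNA of regulatory T cells from mouse spleen. The members are all genes whose symbol begins with Rpl, Rps or Rplp and a number, without the Rps6k kinases, that the GENCODE annotation of GRCm38 calls protein-coding or pseudogene and that held at least 100 estimated reads over all samples together. Of 30284 genes in the data, 341 had such a symbol and 145 reached 100 reads, 85 of them protein-coding and 60 pseudogenes. The members were chosen by their total estimated reads over both groups, but a copy that is near 0 in one group reached 100 reads through the other group alone, so the counts of changed copies given here describe the members and support nothing beyond them. The pseudogenes just inside the threshold were Rpl36-ps3, Rpl3-ps2, Rps15a-ps3, Rpl12-ps1 and Rps19-ps6 with 101.88 to 116.33 reads. Just outside it were Rpl6l, Rps24-ps2, Rpl19-ps1, Rps27a-ps1 and Rps6-ps3 with 79.23 to 97.69 reads. Of the 196 symbols below the threshold, 27 were listed at 0. All 145 members passed the filter on low counts. The name does not hold for every member: Rps19bp1 is a protein that binds the ribosomal protein S19, and 4 protein-coding members carry a pseudogene-type symbol (Rpl10-ps3, Rpl36a-ps1, Rpl9-ps6 and Rps12-ps3).

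The KO-labelled mice carried floxed Tln1 on both alleles and the WT-labelled mice wild-type Tln1; mice of both groups were heterozygous for a Cre recombinase at Foxp3, on the C57/B6 strain. Cre is driven there by the regulatory T cell gene Foxp3, and the labels describe the sorted cells as Foxp3+YFP+. The samples come in pairs under 1 name, and the 2 samples of a pair were added, which left 3 KO-labelled units (KO1 to KO3) and 4 WT-labelled units (WT1 to WT4). These are the n behind every mean ± SD and every test given here. The labels do not tie a unit to an animal, so a p-value measures the spread between units, which may be technical. The units held 39314880 to 56772674 estimated reads in the KO-labelled group and 13017008 to 39706502 in the WT-labelled group. Tln1 was at 788, 901 and 1014 CPM (counts scaled to a common library size with TMM) in KO1 to KO3, against 634, 543, 847 and 649 CPM in WT1 to WT4. A gene count cannot separate a deleted part of a transcript from the rest, so it does not check the label. The counts of markers past the edgeR test stand beside 13.6% of all genes tested (7.07% higher, 6.52% lower in KO-labelled units). Of 8 regulatory T cell markers 5 fell and none rose. Their summed level was 1955 to 2749 CPM in KO-labelled units against 3174 to 4241 CPM in WT-labelled units. Foxp3 itself was at 428 ± 76.1 CPM in KO-labelled units and 419 ± 71.0 CPM in WT-labelled units (SD). Of 6 T cell markers 1 fell, Cd3g (log2 fold change -0.61 ± 0.18, SE, edgeR adjusted p = 0.0498), and they summed to 2104 to 2506 CPM in KO-labelled units and 2245 to 3068 CPM in WT-labelled units. Of 13 mitochondrial transcripts 3 fell (mt-Nd3 -2.12, adjusted p = 0.00786; mt-Atp8 -1.98, adjusted p = 0.0110; mt-Nd6 -0.77, adjusted p = 0.0442), and they summed to 27500.5 to 41927 CPM in KO-labelled units and 32527 to 47589.5 CPM in WT-labelled units. Markers of other cells were present in both groups, none of them listed at 0 throughout, and all marker sums given here are without TMM. Of the 8 B cell markers 6 rose and none fell. They summed to 166 to 347 CPM in KO-labelled units and 32 to 79.4 CPM in WT-labelled units. Of the 8 myeloid markers 3 rose and none fell. They summed to 211 to 574 CPM in KO-labelled units and 8.5 to 109 CPM in WT-labelled units. Of the 8 neutrophil markers 7 rose and none fell. These summed to 257 to 1602 CPM in KO-labelled units and 1.92 to 14.6 CPM in WT-labelled units. The 8 erythroid markers, none of which passed, summed to 70.8 to 3629 CPM in KO-labelled units and 3.30 to 47.9 CPM in WT-labelled units. The part of these marker and mitochondrial values in the results on ribosomal proteins was not tested, and in bulk RNA fewer cells of a type and less RNA per cell cannot be told apart.

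Ribosomal proteins line the ribosomal RNA of the large and the small subunit, and nearly every one is encoded by a single active gene. Their messengers begin with a pyrimidine-rich tract and are translated under control of the mTORC1 kinase complex, which in T cells rises with activation and growth. Because these messengers are short and abundant, reverse transcription has scattered intronless copies of them over the genome as processed pseudogenes, many still almost identical in sequence to the gene. A short read from such a messenger can therefore match the gene and a copy equally well, and a program that divides reads between transcripts must place it.

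The sequences shown first hold bases that tell 3 genes from copies whose values differed between the groups. They are coding windows of 61 bases from the GENCODE transcripts of GRCm38, written 5′ to 3′ on the strand of the transcript, with capitals only at bases that differ. Positions in the substitutions are counted from 1 at the 5′ end of the window, and the gene's base stands before the copy's. Rpl3, a large-subunit protein near the peptidyl transferase centre, and its copy Rpl3-ps1 differed at 2 of 1210 aligned bases. The first window lies in exon 2 of 10 of Rpl3 (chr15:80082499-80082559, minus strand) and in the single exon of Rpl3-ps1 (chrX:13202598-13202658, plus strand), with the substitution C31A:
Rpl3: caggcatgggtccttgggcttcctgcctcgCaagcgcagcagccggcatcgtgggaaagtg
Rpl3-ps1: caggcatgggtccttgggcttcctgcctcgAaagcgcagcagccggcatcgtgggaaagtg
The second lies in exon 6 (chr15:80079723-80079783, minus strand; copy at chrX:13203327-13203387, plus strand), with the substitution T31C:
Rpl3: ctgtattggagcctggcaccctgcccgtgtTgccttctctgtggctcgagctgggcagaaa
Rpl3-ps1: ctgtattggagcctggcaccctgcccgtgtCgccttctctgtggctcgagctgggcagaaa

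Rpl23a, a large-subunit protein at the exit of the peptide tunnel, and Rpl23a-ps3 differed at 1 of 468 aligned bases. The window is in exon 2 of 5 of Rpl23a (chr11:78182866-78182926, minus strand) and at chr14:34170740-34170800 on the plus strand for the copy, with the substitution A31T:
Rpl23a: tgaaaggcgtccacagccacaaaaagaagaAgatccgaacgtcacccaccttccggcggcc
Rpl23a-ps3: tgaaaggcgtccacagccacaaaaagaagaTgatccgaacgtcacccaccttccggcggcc
Rps3a1, a small-subunit protein, differed from Rps3a2 at 4 of 792 bases and from Rps3a3 at 9 of 795. Both copies share the substitution T31C in the window shown, which lies in exon 3 of 6 of Rps3a1 (chr3:86141347-86141407, minus strand), at chr14:88123563-88123623 on the minus strand in Rps3a2 and at chr13:108670788-108670848 on the plus strand in Rps3a3:
Rps3a1: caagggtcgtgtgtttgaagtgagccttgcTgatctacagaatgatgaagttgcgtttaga
Rps3a2: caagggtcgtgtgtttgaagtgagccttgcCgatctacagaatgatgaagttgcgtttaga
Rps3a3: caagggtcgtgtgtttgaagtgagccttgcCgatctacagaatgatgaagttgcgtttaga
The deposited lengths of the Rpl3 and Rpl23a-ps3 transcripts, 1293 and 514 bases, were not those of the annotation used here, 1351 and 468 bases, so the windows are those of this annotation.

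Sharing of sequence was general among the members. It was counted in the annotation used here, in which 352 of 416 member transcripts had the deposited length. The 60 pseudogene members had a median of 92.8% of their 31-base words in some other gene of the data (range 6.17% to 100%), and the 85 protein-coding members a median of 32.1% (0% to 98.7%). For 19 pseudogenes, no word was their own. Their transcripts were short, with a median of 462 bases against 878 bases for the longest transcript of the protein-coding members. They lay on 19 chromosomes, 26 of them over or inside a protein-coding gene, and since the kit did not keep the strand, reads of such neighbours cannot be told apart. The members formed 82 families, each a gene with the copies named after it, and 41 families had at least 1 pseudogene member. A further 140 pseudogenes with other names, mostly Gm numbers, held at least 50% of their words in a member gene. They touch 52 of the families. Of the 140 copies 84 could be tested. In KO-labelled units 4 passed as higher (Gm10288, Gm13611, and Gm13841 and Gm8210, whose values are identical). Another 6 passed as lower (Gm14303, Gm28900, Gm6136, Gm12013, Gm15516 and Gm4963). These counts stand beside 9.18% of all pseudogenes tested (5.80% higher, 3.38% lower) and 13.6% of all genes. The 140 copies are no members, but 1957765 reads stood on them, against 1634629 on the pseudogene members and 9150737 on the protein-coding members.

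Much of the signal of several ribosomal proteins stood under a pseudogene's name in both groups. In 11 of the 82 families most member reads were on pseudogene members, and in 24 families most reads were outside the gene of that name when pseudogenes of other names were counted. Rps12, a small-subunit protein, is the extreme case, since its own transcript was listed at 0 in all 14 samples. Most of its family's reads were on the processed pseudogene Rps12l1, all of whose words stand in Rps12-ps3. Rps12l1 held 588, 461 and 629 CPM in KO1 to KO3 against 277, 397, 452 and 276 CPM in WT1 to WT4. The protein-coding Rps12-ps3 had 111, 82.4 and 100.9 CPM in the KO-labelled units, against 215, 174, 115 and 261 CPM in the WT-labelled units, and fell (log2 fold change -0.96 ± 0.26, SE, edgeR adjusted p = 0.0427). That call ended without KO1, KO2, KO3, WT1, WT2 or WT4 (adjusted p 0.0600 to 0.146), and Rps12l1 did not pass (0.67 ± 0.20, adjusted p = 0.0528). Both were free of overlap between the groups, in opposite directions, while the family's sum did not pass (0.28 ± 0.15, adjusted p = 0.222).

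**Figure D1:**
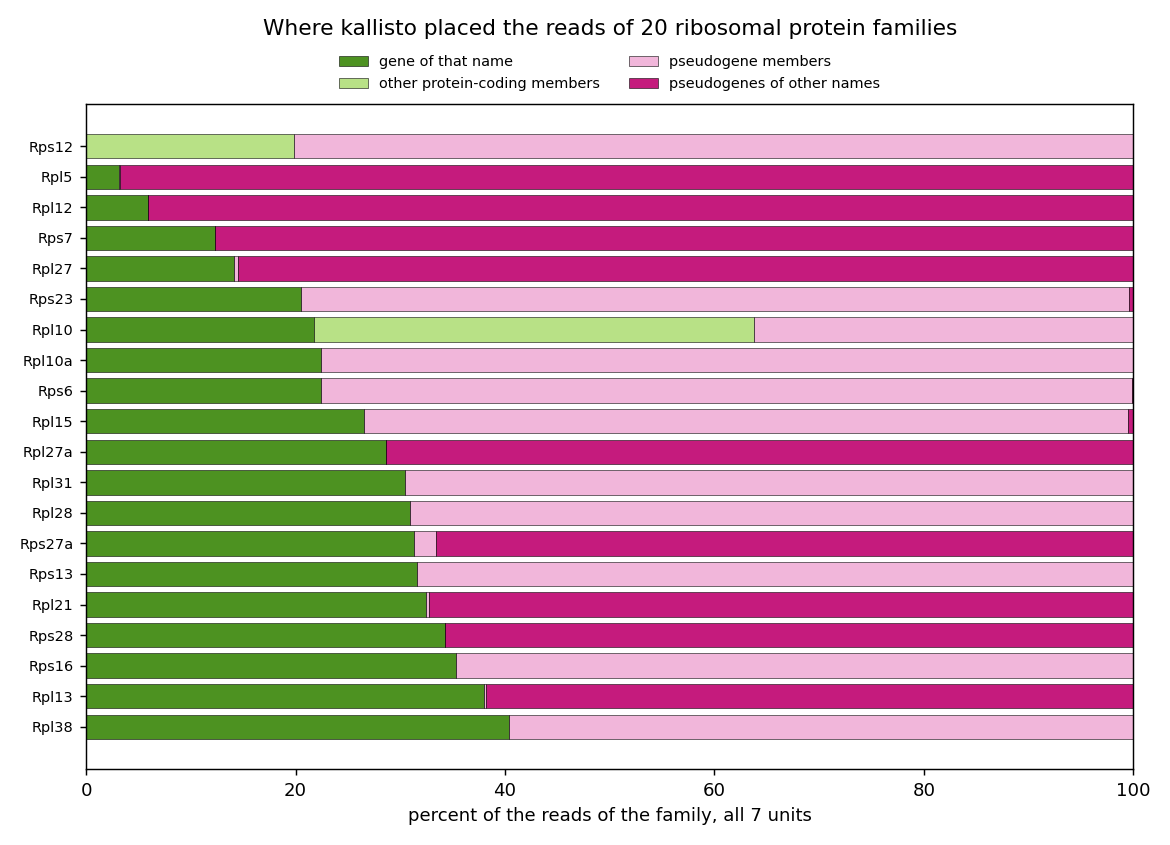
Share of the reads of each family, in percent over all 7 units, that stood on the gene of that name, on other protein-coding members, on pseudogene members and on pseudogenes of other names, for the 20 families with the largest share outside the gene. Rps12 has no read on its gene, and Rpl5, Rpl12 and Rps7 have most of theirs on pseudogenes of other names.

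The families with the most reads on copies were Rps6, Rps23, Rps16, Rps12, Rpl10a and Rpl3, and those with the largest share on copies were Rps12, Rps23, Rpl10a, Rps6, Rpl15 and Rpl31. The share was 80.1% in Rps12, 79.4% in Rps23, 77.6% in Rpl10a, 77.5% in Rps6, 73.4% in Rpl15, 69.6% in Rpl31, 64.7% in Rps16 and 31.6% in Rpl3. Rps6 is the small-subunit protein that S6 kinases phosphorylate. It had 343, 239 and 249.7 CPM in KO1 to KO3 and 361, 453, 276 and 360.3 CPM in WT1 to WT4, while Rps6-ps4 had 1100.3, 912 and 1043 CPM against 812, 1176, 1111 and 1017 CPM. Rps6-ps4 (chromosome 2) matches Rps6 with 0 substitutions over 750 bases, so nothing in its own sequence can mark a read as its own. Copies that match a transcript of their gene without a substitution also took most of the reads of Rps23, Rps16 and Rpl10a. That transcript held 100% of the gene's own reads in Rps23, 3.38% in Rps16 and 22.1% in Rpl10a. Its deposited length was 756 bases in Rps23 and 650 bases in Rps16, against 937 and 1109 bases in the annotation used here. In these 7 families other than Rpl3 (Rps6, Rps23, Rps16, Rps12, Rpl10a, Rpl15 and Rpl31) no sum passed the test, with log2 fold changes of -0.10 to 0.28 and SE of 0.14 to 0.17. None of the genes Rps6, Rps23, Rps16, Rpl10a, Rpl15 and Rpl31 passed either, with log2 fold changes of -0.47 to 0.33.

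Without an offset for GC content and transcript length, fewer changes passed the test across all members once a gene and its copies were added. Of the 85 protein-coding members 15 passed the test (6 higher and 9 lower in KO-labelled units), against 13.6% of all 15775 genes tested (7.07% higher, 6.52% lower). Of the 60 pseudogene members 10 passed (8 higher and 2 lower), against 9.18% of all pseudogenes tested (5.80% higher, 3.38% lower). With the copies added to their genes, 9 of 82 family sums passed (3 higher and 6 lower), against 13.6% of that table (7.09% higher, 6.56% lower). With pseudogenes of other names added too, 2 of 82 sums passed, both lower, against 13.7% of that table (7.13% higher, 6.58% lower). Both the splits and the totals moved with the offset for GC content and transcript length. It gave 23 of 85 genes (2 higher, 21 lower) and 18 of 60 copies (6 higher, 12 lower). Among sums it gave 19 of 82 (0 higher, 19 lower), and 22 of 82 with copies of other names (0 higher, 22 lower). In that fit 9.61% of all 15759 genes passed (5.74% higher, 3.87% lower). Of the 25 members called without the offset 17 were also called with it, and of the 9 sums 5 were. The calls on Rps29, Rpl37, Rpl37a, Rpl30, Rps28, Rpl36a-ps1, Rpl17-ps9 and Rps25-ps1 ended with it (adjusted p 0.0535 to 0.823), as did those on the sums of Rpl30, Rpl37a, Rps28 and Rps29 (adjusted p 0.527 to 0.943). The median log2 fold change was -0.02 over genes, -0.01 over copies, 0.00 over sums and -0.03 over sums with copies of other names, against 0.06 over all genes. The SD of log2 fold changes was 0.86 over genes and 3.23 over copies, but 0.43 over sums and 0.34 over sums with copies of other names, against 1.30 over all genes. Groups did not overlap in 20% of genes, 25% of copies, 11% of sums and 3.66% of sums with copies of other names, against 30.8% of all genes tested. Adding copies also brought the paired samples of a unit closer together, where the chi-square per degree of freedom was 4.71 to 10.3 over members, 2.01 to 7.08 over sums and 1.57 to 2.73 over sums with copies of other names.

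**Figure D2:**
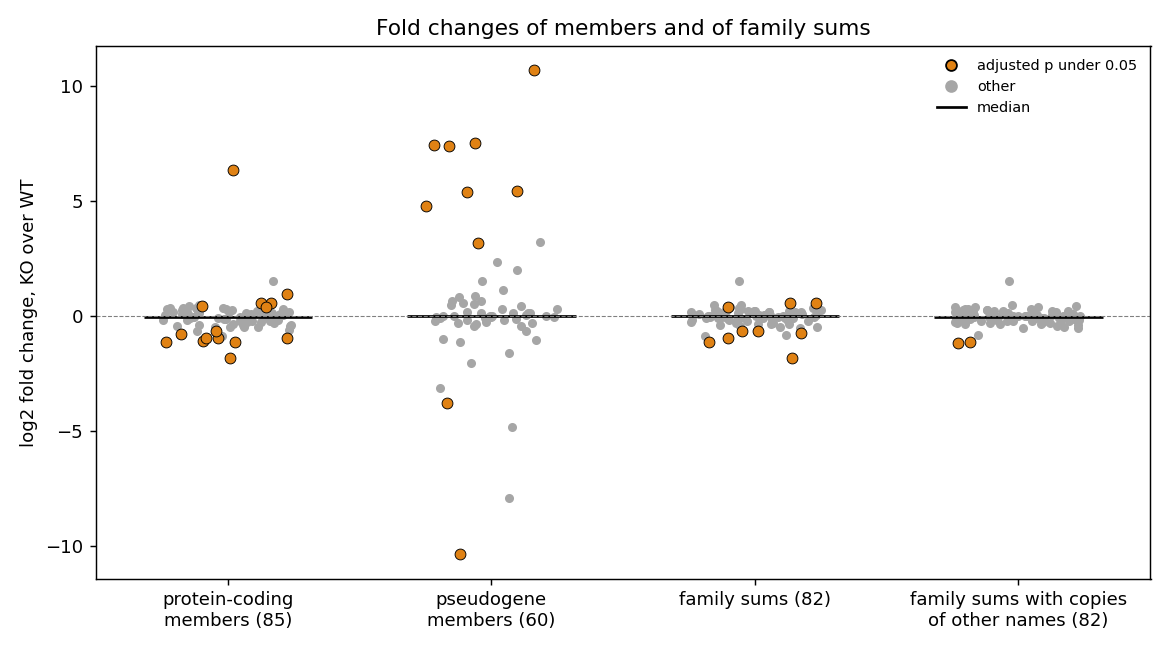
Log2 fold change, KO over WT, of each protein-coding member, pseudogene member, family sum and family sum with copies of other names; each point is a gene or sum, orange points have an adjusted p under 0.05, bars are medians. The copies spread from -10.37 to 10.69, and 2 of the 82 sums on the right pass the test, both lower in the KO-labelled units.

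Copies of Rpl3, Rps3a1 and Rpl23a were present in KO-labelled units and nearly absent from WT-labelled units, and each of the 3 genes fell. Rpl3-ps1 had 510.5, 569 and 912 CPM in KO1 to KO3, against 0, 0.537, 0.649 and 0 CPM in WT1 to WT4, which is 96837 reads against 38 in all. Rpl3 had 849, 635 and 505 CPM in the KO-labelled units, against 953, 1662, 1437 and 1097 CPM in the WT-labelled units. The groups were apart in both, and both changed: the copy rose (log2 fold change 10.69 ± 0.67, SE, edgeR adjusted p = 0.000851) and the gene fell (-0.96 ± 0.24, adjusted p = 0.0305). Their sum was 1361, 1204 and 1417 CPM against 953, 1664, 1438 and 1097 CPM, with overlapping groups and no call (0.04 ± 0.21, adjusted p = 0.906). Of the 1180 words of Rpl3-ps1, 94.7% stand in Rpl3 and 31 stand in no other gene. The call on Rpl3 ended without KO2, KO3, WT2, WT3 or WT4 (adjusted p 0.0556 to 0.0917), and that on the copy held without each unit.

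Rps3a1 had 2 such copies, on different chromosomes, and both rose. Rps3a2 had 329.9, 459 and 416 CPM in KO1 to KO3, against 0.708, 5.76, 1.35 and 0.457 CPM in WT1 to WT4 (log2 fold change 7.53 ± 0.86, adjusted p = 0.00827 with edgeR). Rps3a3, which lies within Pde4d on the same strand, had 134, 170.2 and 168 CPM against 0.787, 0.83, 0.699 and 1.45 CPM (7.45 ± 0.24, adjusted p = 8.26e-08). Rps3a1 itself had 1176, 631 and 633 CPM in the KO-labelled units and 1492, 1985, 1632 and 1724 CPM in the WT-labelled units. It fell (-1.07 ± 0.24, adjusted p = 0.0212), a call that ended without KO2, KO3, WT2 or WT4 (0.0512 to 0.0670). The sum of the family was 1641, 1261 and 1217 CPM in KO1 to KO3 and 1494, 1992, 1634 and 1726 CPM in WT1 to WT4 and did not pass (-0.32 ± 0.18, adjusted p = 0.242).

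Rpl23a-ps3 was detected in a single WT-labelled unit, with 335, 227 and 369 CPM in KO1 to KO3 against 0, 0, 5.64 and 0 CPM in WT1 to WT4. Rpl23a had 479, 436 and 355 CPM in KO-labelled units against 642, 759.9, 722 and 796 CPM in WT-labelled units. The copy rose (7.40 ± 1.48, adjusted p = 0.0350 with edgeR) and the gene fell (-0.79 ± 0.16, adjusted p = 0.0131). The sum was 814, 663 and 724 CPM against 642, 760.0, 727 and 796 CPM, with a log2 fold change of 0.00 ± 0.15 (adjusted p = 0.988). The copy's call ended without any of the KO-labelled units, WT1, WT2 or WT4 (0.0665 to 0.0883), while the gene's held whichever unit was left out. Rpl23a also shares 53.3% of its words with Tlcd1, which lies over it on the other strand.

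In the Rpl17 family, also of the large subunit, copies moved against each other. Rpl17-ps5 had 18.1, 21.0 and 18.8 CPM in KO1 to KO3, against 298, 310.0, 103 and 341 CPM in WT1 to WT4, and fell (-3.77 ± 0.44, adjusted p = 0.00528 with edgeR). Rpl17-ps9 had 134, 105 and 107 CPM against 5.27, 4.54, 26.2 and 14.2 CPM and rose (3.17 ± 0.67, adjusted p = 0.0370), a call that held without WT3 and ended without each other unit (0.0570 to 0.106) and with the offset (2.70, adjusted p = 0.0715). Both copies hold 88.2% of their words in Rpl17. Rpl17 had 925, 684 and 635 CPM in KO-labelled units and 767, 915, 849 and 864 CPM in WT-labelled units, with overlap and no call (-0.18 ± 0.17, adjusted p = 0.491). The sum did not pass either (-0.42 ± 0.18, adjusted p = 0.135).

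**Figure D3:**
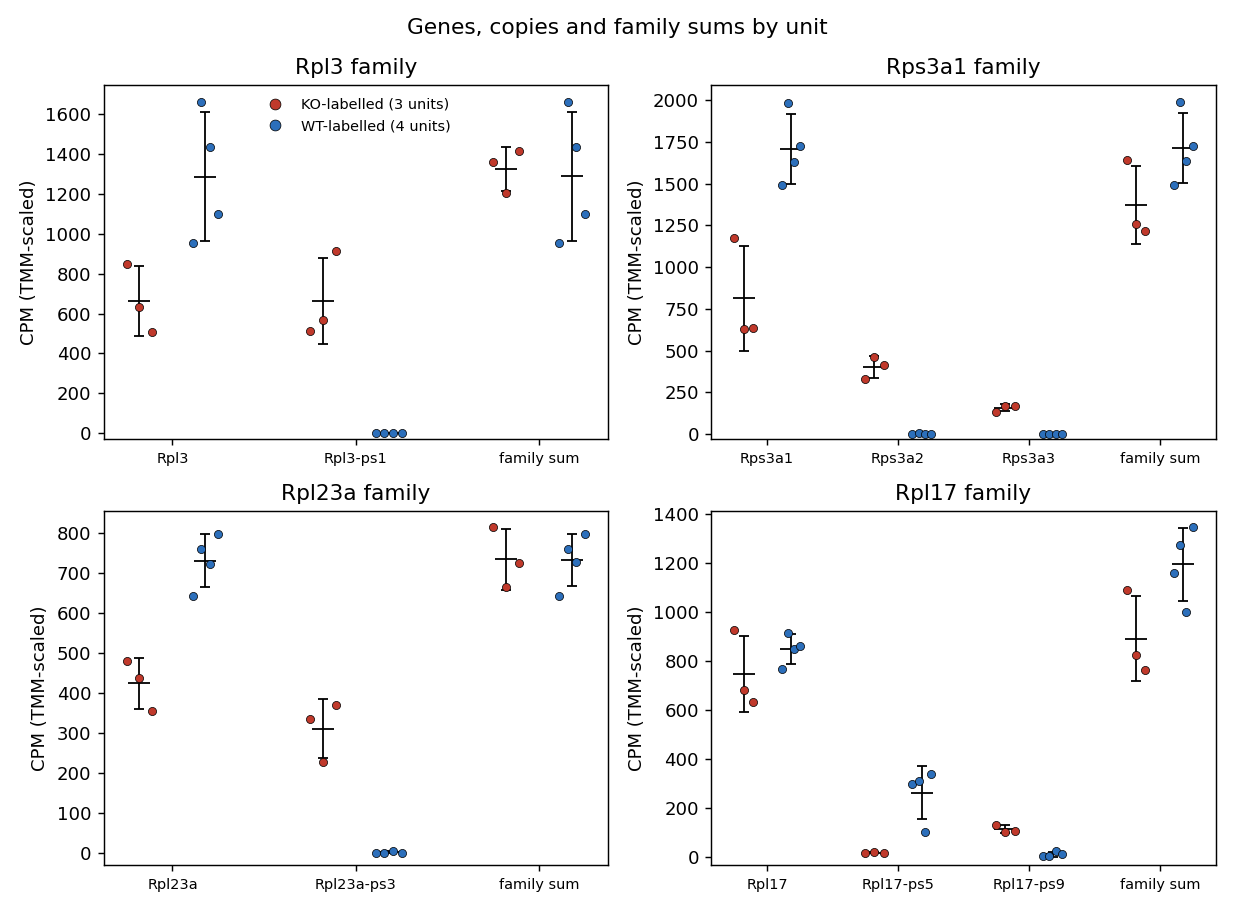
TMM-scaled CPM of Rpl3, Rps3a1, Rpl23a and Rpl17, of the copies named on the axis and of the whole family, by unit; points are units, bars are means ± SD, KO-labelled units (3) left of WT-labelled units (4) in each pair. Rpl3-ps1, Rps3a2, Rps3a3 and Rpl23a-ps3 are near 0 in every WT-labelled unit, while the groups overlap in each family sum.

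Smaller copies switched at levels that few reads carry. Rps18-ps3 had 5.36, 10.3 and 2.66 CPM in KO1 to KO3, against 0, 0, 0.225 and 0.305 CPM in WT1 to WT4 (log2 fold change 5.41 ± 0.90, adjusted p = 0.00919 with edgeR). Rps26-ps1 had 3.36, 3.19 and 0.620 CPM against 0, 0.0977, 0 and 0.152 CPM (5.42 ± 1.01, adjusted p = 0.0107). Both rose, both held without each unit, and neither family's sum passed (Rps18 -0.10 ± 0.20, Rps26 0.17 ± 0.14). Rps25-ps1 rose too, and Rpl27-ps3 had 0 CPM in all KO-labelled units against 9.99, 0.537, 1.42 and 8.61 CPM in WT1 to WT4, at least 166-fold lower when 3 reads are set for the KO-labelled group. Leaving out KO1, KO2, KO3, WT1, WT3 or WT4 ended both calls (0.0608 to 0.131 for Rps25-ps1, 0.0569 to 0.125 for Rpl27-ps3), and so did the offset for Rps25-ps1 (adjusted p = 0.0640). Of the 25 members that passed, 9 passed whichever of the 7 units was left out: Rpl3-ps1, Rps3a2, Rps3a3, Rpl17-ps5, Rps18-ps3, Rps26-ps1, Rps7, Rpl11 and Rpl23a. The 25 members lay on 17 chromosomes, at most 3 on 1 chromosome. Some copies had identical values: Rpl35a-ps2, Rpl35a-ps3, Rpl35a-ps4 and Rpl35a-ps6 had the same 30.1, 18.6 and 18.9 CPM in KO1 to KO3 and the same 19.3, 29.6, 21.6 and 19.9 CPM in WT1 to WT4.

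Of 21 families with over 10% of member reads on copies, 15 had a gene that stood against its copies or its sum in sign. No threshold on size was set. In Rpl10a the gene had a log2 fold change of -0.20 and the copies a log2 ratio of 0.02. Besides Rpl3, Rps3a1 and Rpl23a the 15 families included Rpl30 and Rpl10, described here by values because not each of their parts passed. Rpl30-ps9 had 48.3, 104 and 94.9 CPM in KO1 to KO3 against 5.19, 2.44, 26.6 and 0.0762 CPM in WT1 to WT4 (3.20 ± 1.30, edgeR adjusted p = 0.160). Rpl30 had 259, 244 and 113 CPM against 464, 461, 355 and 510.2 CPM and fell (-1.12 ± 0.28, adjusted p = 0.0327), until KO2, WT1, WT2 or WT4 was left out (0.0591 to 0.0854) or the offset was used (-0.46, adjusted p = 0.176). Rpl10 had 199, 186 and 165 CPM in KO-labelled units and 297, 389, 164 and 277 CPM in WT-labelled units, and Rpl10-ps1 405, 291 and 416 CPM against 170.1, 334, 353 and 217 CPM. Rpl10 did not pass as a gene (-0.62 ± 0.25, adjusted p = 0.123), and its sum had a log2 fold change of 0.06 ± 0.18.

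Among the protein-coding members, Rps7 had the widest log2 fold change after Rpl36a-ps1. Rps7, a small-subunit protein that also binds the p53 regulator Mdm2, had 77.3, 75.1 and 56.1 CPM in KO1 to KO3 and 249.8, 273, 152 and 316 CPM in WT1 to WT4. It fell (log2 fold change -1.83 ± 0.24, edgeR adjusted p = 0.00330), with or without any unit. The pseudogene Gm6472, which holds 84.2% of its words in Rps7, had 798, 721 and 843 CPM against 574, 711, 697 and 691 CPM, higher in every KO-labelled unit but without a call (0.24 ± 0.14, adjusted p = 0.285). Gm9493, with 83.7% of its words in Rps7, had 226, 73.6 and 13.5 CPM against 172, 223, 236 and 177 CPM, with overlap and no call (-0.95 ± 0.88, adjusted p = 0.511). With all pseudogenes of other names added, Rps7 had 1102, 869 and 911 CPM in KO-labelled units and 997, 1208, 1084 and 1183 CPM in WT-labelled units, with overlap and no call (-0.22 ± 0.16, adjusted p = 0.360).

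Rpl11 and its copy Gm10288 both passed, in opposite directions. Rpl11, which with Rpl5 and the 5S RNA binds Mdm2, had 248, 195 and 171 CPM in KO1 to KO3 against 389, 434, 308 and 477 CPM in WT1 to WT4, and fell (-0.98 ± 0.19, adjusted p = 0.0113 with edgeR). Gm10288 had 489.7, 388 and 444 CPM against 176, 283, 329 and 199.7 CPM and rose (0.83 ± 0.21, adjusted p = 0.0316). The 2 differ at 1 of 537 aligned bases, the substitution G31A in a window of exon 2 of 6 of Rpl11 (chr4:136052608-136052668, minus strand; Gm10288 at chr3:146839232-146839292, minus strand):
Rpl11: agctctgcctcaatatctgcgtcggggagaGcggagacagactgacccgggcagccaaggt
Gm10288: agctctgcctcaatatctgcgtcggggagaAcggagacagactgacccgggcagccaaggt
The Rpl11 transcript aligned here held 0.623% of the gene's own reads. The sum with copies of other names was 745, 588 and 622 CPM in KO-labelled units and 575, 727, 644 and 687 CPM in WT-labelled units (-0.01 ± 0.15, adjusted p = 0.958).

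Rpl28, Rpl37a and Rpl29, all of the large subunit, complete the genes with the smallest adjusted p. Rpl28 had 142, 134 and 227 CPM in KO1 to KO3 against 62.8, 93.3, 99.2 and 87.6 CPM in WT1 to WT4 and rose (0.97 ± 0.21, edgeR adjusted p = 0.0205, and 0.0595 without WT4). Its copy Rpl28-ps1 held 69.0% of the family's reads, with 322, 292 and 313 CPM against 281, 366, 315 and 351 CPM, and the sum did not pass (0.20 ± 0.15, adjusted p = 0.383). The copy is identical over 414 bases to a Rpl28 transcript that held 6.40% of the gene's own reads. Rpl37a had 427, 349 and 391.9 CPM against 228, 269.9, 301 and 264 CPM and rose (0.55 ± 0.14, adjusted p = 0.0308), but was not called with the offset (0.16, adjusted p = 0.503). Rpl29 had 190.1, 263 and 200.3 CPM against 289, 377, 374 and 317 CPM and fell (-0.64 ± 0.16, adjusted p = 0.0310). For each of them 5 of the 7 single units ended the call when left out, KO1, KO3, WT2 and WT4 in both, WT1 for Rpl37a (0.0617 to 0.0948) and WT3 for Rpl29 (0.0570 to 0.0897). Gm13841, with 79.5% of its words in Rpl29, had 86.3, 38.5 and 94.9 CPM in KO-labelled units against 0, 0, 0.0749 and 0 CPM in WT-labelled units, and rose. Gm15526, with 59.2% of its words in Rpl29, stood the other way, with 1.17, 4.16 and 0 CPM against 35.7, 50.2, 23.2 and 44.2 CPM, without overlap and without a call (-4.45 ± 1.42, adjusted p = 0.0982). Among copies of other families, Gm4963, with 53.7% of its words in Rps25, fell, with 0.575, 0.153 and 0 CPM in KO1 to KO3 against 136, 102, 17.3 and 149.9 CPM in WT1 to WT4 (adjusted p = 0.0209).

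The family sums that passed were those of Rps7, Rpl11, Rpl37a, Rpl29, Rps27, Rps29, Rpl30, Rps28 and Rps27a, and in 7 of them the gene was the only member. Pseudogenes of other names existed for 8 of the 9, and once they were added none of these 8 passed. Some added copies had more reads than the gene and no call themselves. Gm8430, added to Rps27a, averaged 488 CPM in KO-labelled and 418 CPM in WT-labelled units (edgeR adjusted p = 0.387). The part of such large copies in the lost calls was not tested. Rps29, a zinc-binding small-subunit protein, had 417, 336 and 302 CPM in KO1 to KO3 against 210.0, 244, 274 and 235 CPM in WT1 to WT4 and rose (0.55 ± 0.15, edgeR adjusted p = 0.0410), while Gm14303, which holds all its words in Rps29, fell (-0.82 ± 0.23, adjusted p = 0.0457). With the copies the Rps29 sum was 596, 479 and 401 CPM against 455, 500.1, 452 and 552 CPM (0.01 ± 0.16, adjusted p = 0.986). Rps28 had 133, 120.0 and 119 CPM against 92.5, 89.7, 87.9 and 103 CPM and rose (0.41 ± 0.12, adjusted p = 0.0433), and its sum with copies was at -0.02 ± 0.15. The Rps28 call ended without each unit in turn (0.0645 to 0.111), and that of Rps29 without KO1, KO2, WT1, WT2 or WT4 (0.0757 to 0.137). The Rpl30 sum fell (-0.66 ± 0.19, adjusted p = 0.0431), did not pass without KO1, KO3, WT1, WT2 or WT4 (0.0592 to 0.118), and was at -0.52 ± 0.19 with copies of other names (adjusted p = 0.0929). For Rps27a, made as a fusion with ubiquitin, the sum was 235, 179 and 181 CPM in KO-labelled units against 349.9, 343, 216 and 427 CPM in WT-labelled units (-0.75 ± 0.22, adjusted p = 0.0467), and it ended without KO2, KO3, WT1, WT2 or WT4 (0.0846 to 0.149). With the offset for GC content and length, the sums of Rpl30 and Rps29 changed sign, to 0.020 (adjusted p = 0.943) and -0.12 (adjusted p = 0.649), and that of Rps28 stood at 0.046 (adjusted p = 0.826), all without a call.

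**Figure D4:**
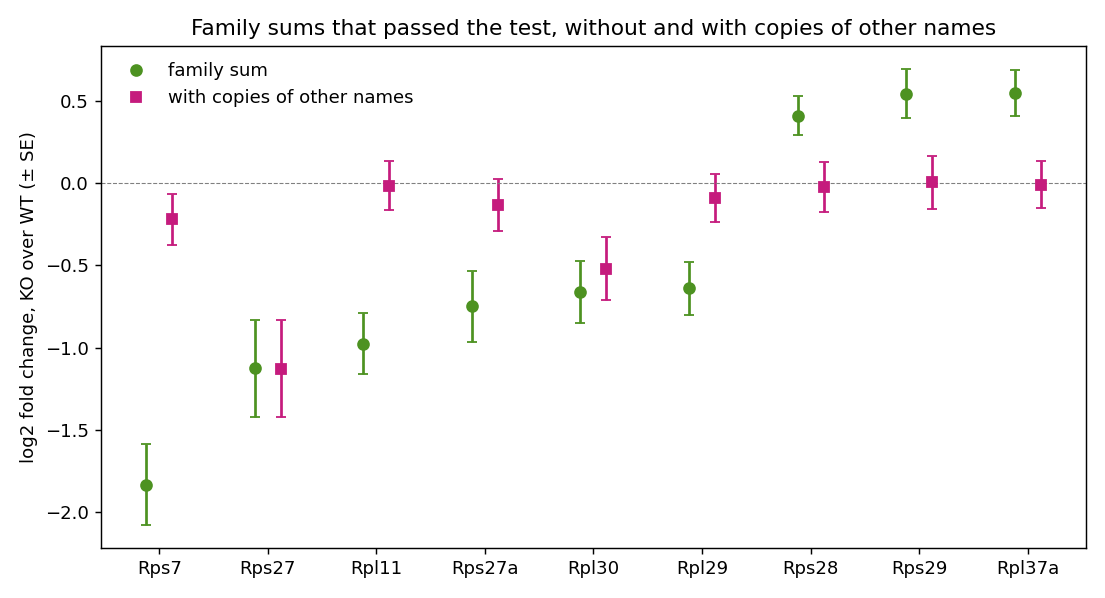
Log2 fold change, KO over WT, ± SE of the 9 family sums that passed the test, from members alone (circles) and with pseudogenes of other names added (squares). Rps7 lies at -1.83 and -0.22, Rpl11 at -0.98 and -0.01, and Rps27, with no copy of another name, stays at -1.13.

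Rps27 and Rpl39 were the sums that passed with copies of other names. Rps27, a zinc-finger small-subunit protein, had 588, 455 and 266 CPM in KO1 to KO3 and 1023, 932, 638 and 1217 CPM in WT1 to WT4, and fell (-1.13 ± 0.30, edgeR adjusted p = 0.0382, and 0.0379 in the table with copies of other names). It shares 98.7% of its words with Rps27rt, a protein-coding retrocopy that is counted as its own family, at 551, 409 and 332 CPM against 269, 313, 343 and 320.3 CPM (0.47 ± 0.18, adjusted p = 0.103). The words are those of the annotation, whose Rps27 transcript has 345 bases, while the deposited length was 255 bases. With Rps27rt added, Rps27 no longer passed (-0.54 ± 0.23, adjusted p = 0.135). Rpl39, a small protein of the exit tunnel, had 296, 179 and 144 CPM against 412, 407, 277 and 414 CPM (-0.87 ± 0.25, adjusted p = 0.0512). Its only copy of another name, Gm12013, holds 63.2% of its words in Rpl39. Gm12013 had 29.5, 21.9 and 13.4 CPM in KO1 to KO3 against 169, 125, 46.3 and 201 CPM in WT1 to WT4. It fell (-2.64 ± 0.59, edgeR adjusted p = 0.0395). The sum of Rpl39 and Gm12013 was 326, 201 and 158 CPM in KO-labelled units against 581, 532, 323 and 616 CPM in WT-labelled units and fell (-1.17 ± 0.30, adjusted p = 0.0380). WT3 and KO1 lay next to each other in it, with 323 and 326 CPM. Both calls on sums ended without KO2, KO3, WT1, WT2 or WT4 (0.0682 to 0.0937 for Rps27, 0.0744 to 0.110 for Rpl39).

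The stalk of the large subunit, which recruits translation factors, did not pass the test in any of its proteins without the offset for GC content and length, and with it Rplp1 passed as lower. Rplp0 had 1739, 1634 and 2430.2 CPM in KO1 to KO3 and 1109, 1826, 1793 and 1266 CPM in WT1 to WT4 (log2 fold change 0.37 ± 0.23, edgeR adjusted p = 0.294). Rplp1 averaged 958 ± 63.0 CPM in KO-labelled units and 869.7 ± 128 CPM in WT-labelled units, and Rplp2 555 ± 34.9 and 498 ± 48.7 CPM (SD), with overlapping groups in all 3. With the offset, Rplp1 fell (-0.66, adjusted p = 0.0147), and so did its sum (-0.67, adjusted p = 0.0145). Rpl5 shows how far a gene's own count can lie from its family. As a gene it had 56.9, 50.9 and 37.9 CPM in KO1 to KO3 and 64.3, 88.7, 51.02 and 65.3 CPM in WT1 to WT4, while Gm15500, identical to a Rpl5 transcript over 894 bases, had 1788, 1427 and 1389 CPM against 1568, 2274, 1769 and 1814 CPM. With it the Rpl5 sum was at -0.28 ± 0.18 (adjusted p = 0.316). Rpl26, which binds the p53 messenger, averaged 563 ± 65.8 CPM and 534 ± 42.6 CPM (0.08 ± 0.14, adjusted p = 0.744), and fell with that offset (-0.57, adjusted p = 0.0281). Rpl13a, known as a translational silencer after release from the ribosome, varied widely, with 39.0, 28.4 and 102 CPM against 3.62, 24.6, 41.7 and 6.55 CPM (1.54 ± 0.95, adjusted p = 0.327).

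None of the paralogues Rpl22l1, Rpl36al, Rpl7l1, Rps27l and Rps4l passed the test. Rpl22l1, the paralogue of Rpl22, had 104, 79.0 and 69.8 CPM in KO1 to KO3 and 184, 119, 94.9 and 194 CPM in WT1 to WT4, with WT3 below KO1 (-0.81 ± 0.27, edgeR adjusted p = 0.0792). Rpl36al averaged 90.8 ± 10.7 and 91.2 ± 12.8 CPM, Rpl7l1 56.2 ± 9.12 and 62.5 ± 6.01 CPM, and Rps27l, a p53 target in human cells, 18.3 ± 7.02 and 16.5 ± 3.05 CPM in KO-labelled and WT-labelled units (SD). Rps4l, annotated as a pseudogene, stayed at or below 1.61 CPM in each unit. The name of a copy did not always give its closest gene: Rpl36a-ps3 held 89.3% of its words in Rpl36al. Rpl36a-ps1, annotated as protein-coding, had 15.2, 10.7 and 19.4 CPM against 0, 0, 0 and 0.914 CPM and rose (6.37 ± 1.46, adjusted p = 0.0421), until KO1, KO2, KO3, WT1 or WT2 was left out (0.0730 to 0.120) or the offset was used (6.05, adjusted p = 0.0535).

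The share of ribosomal protein reads placed on copies was higher in every KO-labelled unit, while the share of all reads held by members overlapped. Pseudogene members held 15.7% to 17.2% of member reads in KO-labelled units and 12.5% to 13.1% in WT-labelled units (16.6 ± 0.814% and 12.9 ± 0.249%, SD), without overlap. With copies of other names the shares were 29.3 ± 0.481% and 26.7 ± 0.513%, again without overlap. These shares were not tested, since the members were chosen with earlier results known. They hold the copies already described. Rpl3-ps1, Rps3a2, Rpl23a-ps3 and Rps3a3 had 96837, 56372, 44826 and 22245 reads in KO-labelled units, against 38, 186, 226 and 73 in WT-labelled units. Rpl17-ps5 stood the other way, with 2702 and 18752 reads. Shares without these copies were not computed, so the difference is not shown for copies in general. All members together held 4.23% to 5.18% of all reads in KO-labelled units and 4.17% to 5.44% in WT-labelled units, so the groups overlapped. Family sums stood at a median log2 deviation of 0.12, -0.14 and -0.02 in KO1 to KO3 and of -0.18, 0.16, 0.01 and 0.04 in WT1 to WT4, so these overlapped too.

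**Figure D5:**
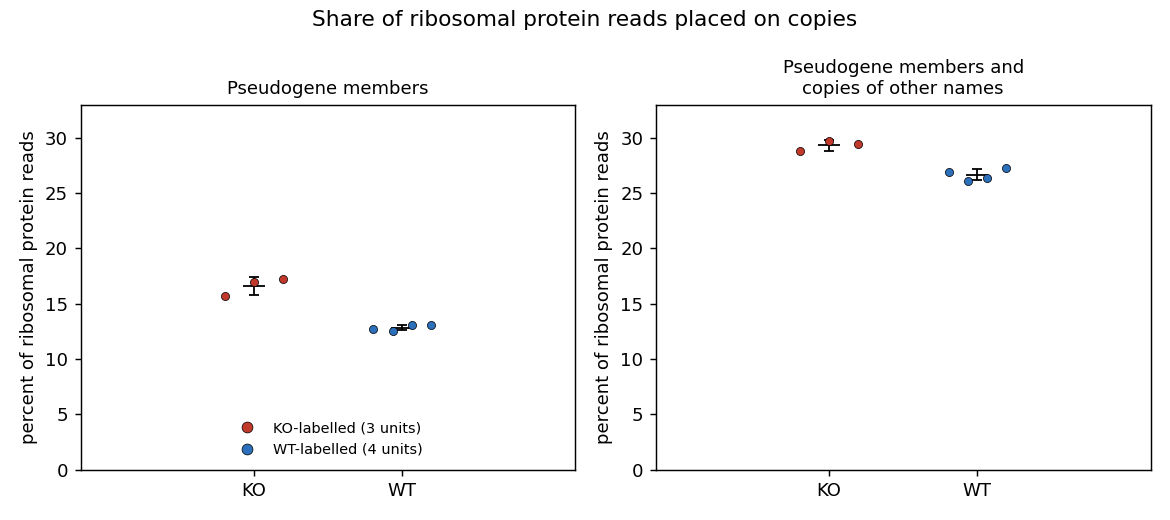
Percent of ribosomal protein reads on pseudogene members (left) and on pseudogene members and copies of other names (right); points are units, bars are means ± SD, KO-labelled units (3) left of WT-labelled units (4). On the left the KO-labelled units lie between 15.7% and 17.2% and the WT-labelled units between 12.5% and 13.1%.

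On the scale of levels per transcript length (TPM) and with copies of other names, the median family was at 1616 TPM in KO-labelled units and 1668 TPM in WT-labelled units, and the quartiles at 1029 and 2152 TPM in KO-labelled units and 1106 and 2235 TPM in WT-labelled units. Without these copies the median was 1214 and 1249 TPM, and Rpl5 stood among the lowest at 50.9 ± 11.1 TPM in KO-labelled units and 70.6 ± 8.06 TPM in WT-labelled units (SD), against 1829 ± 253 and 2238 ± 314 TPM with them. Rps7 was at 75.7 ± 16.4 and 274 ± 62.6 TPM without and at 1988 ± 212 and 2224 ± 221 TPM with them. Rps27 had the highest family level from members alone, 6442 ± 2448 TPM against 14368 ± 3022 TPM. Its transcript of 255 bases was given an effective length of 56.2 bases, and TPM is divided by that length. Rps19bp1 was lowest, at 9.84 ± 0.629 and 8.74 ± 0.68 TPM. The next lowest in KO-labelled units were Rpl7l1, Rpl5, Rps27l and Rpl13a, and in WT-labelled units Rpl13a, Rpl7l1, Rps27l and Rpl12. Summed over families with copies of other names, TPM was 152195 to 202960 in KO-labelled units and 226167 to 270845 in WT-labelled units, without overlap. From members alone it was 99447 to 124816 TPM in KO-labelled units and 119367 to 135274 TPM in WT-labelled units, with overlap. Counted in reads, the groups overlapped with copies of other names as well. Members and these copies held 4.99% to 6.13% of all reads in KO-labelled units and 4.98% to 6.44% in WT-labelled units. Rpl21 with copies of other names was at 10831 ± 3545 TPM in KO-labelled units and 29494 ± 9072 TPM in WT-labelled units (SD). In reads the same Rpl21 sum averaged 947 CPM in KO-labelled units and 972 CPM in WT-labelled units. There the groups overlapped without a call (log2 fold change -0.04 ± 0.16, SE, edgeR adjusted p = 0.899). The cause of the distance between the 2 scales was not tested.

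In the pathway lists 0 to 2 genes each passed with edgeR, to be read beside the same 13.6% of all genes, against 22.5% of all genes with DESeq2's Wald test and 32.6% at an unadjusted p under 0.05. Of the ribosomal proteins with other symbols, Rpsa, Rack1 and Fau did not pass with edgeR or DESeq2's Wald test, nor at an unadjusted p under 0.05, with log2 fold changes of -0.28 to 0.28. Rack1, a scaffold on the small subunit, had 1228, 1129 and 1544 CPM in KO1 to KO3 and 802, 1307, 1292 and 887 CPM in WT1 to WT4. Of 18 other pyrimidine-tract messengers of translation, 1 fell, the initiation factor subunit Eif3e, with 297, 227 and 217 CPM against 349, 441, 325 and 425 CPM (-0.64 ± 0.17, adjusted p = 0.0342), and none rose. Of 16 genes of mTORC1 and its targets, 2 rose: Tsc2, an inhibitor of mTORC1 signalling, with 84.1, 101.3 and 111 CPM against 71.3, 64.8, 75.3 and 69.0 CPM (0.49 ± 0.13, adjusted p = 0.0344), and Mtor, the kinase, with 75.9, 80.1 and 88.7 CPM against 59.2, 53.8, 68.5 and 59.1 CPM (0.44 ± 0.13, adjusted p = 0.0451). Among 25 genes of ribosome assembly, Nop56, of the small nucleolar ribonucleoprotein, alone passed, with 223, 281 and 256 CPM in KO-labelled units against 194, 188, 163 and 192 CPM in WT-labelled units (0.46 ± 0.13, adjusted p = 0.0434). Of 6 genes listed for Rpl5, Rpl11 and p53, which include regulators and targets of p53, 1 rose. This was the p53 target Cdkn1a, a cell cycle inhibitor, with 3.52, 4.54 and 7.49 CPM against 1.26, 0.977, 0.400 and 2.21 CPM (2.14 ± 0.53, adjusted p = 0.0293). Of the 80 mitochondrial ribosomal protein genes tested 0 passed with edgeR, 1 with DESeq2's Wald test and 9 at an unadjusted p under 0.05, and their median log2 fold change was 0.02. DESeq2's Wald test called 8 of the 16 mTORC1 genes, 3 of the 25 assembly genes, 3 of the 18 pyrimidine-tract messengers and 3 of the 6 genes of the p53 list. At an unadjusted p under 0.05 these counts were 11 of 16, 11 of 25, 6 of 18 and 3 of 6.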

How the data were processed

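Per the submitters' processing notes, reads were assigned with kallisto and the build was GRCm38; for its version and the annotation, nothing is given in the sources used here. Estimated counts, not normalized, and TPM (scaled by effective transcript length) were deposited by the authors per transcript and sample. The kit was non-stranded, per the labels' protocols. The 14 samples held 6357532 to 28603472 estimated reads, and 1.17% to 1.28% of them stood on transcripts that matched no gene. Estimated counts were summed per gene with GENCODE vM21, added over the 2 samples of a unit, and rounded. edgeR 4.0.16 (quasi-likelihood test, TMM, filterByExpr, Benjamini-Hochberg adjustment over all genes, FDR 0.05) compared 3 KO-labelled with 4 WT-labelled units, on genes and on tables in which families were summed. The procedure was tested on simulated data. Alternatives used limma 3.58.1, DESeq2 1.42.0, other scalings and filters, a GC and length offset, a replicate block without WT4, and single units left out. A pseudogene of another name joined a family when at least 50% of its 31-base words stood in the gene. Named genes were the families with most reads or the largest share on copies, the genes, copies and sums with the smallest adjusted p, families of opposite sign, a fixed list of proteins, the genes next to the threshold, and the genes past the test in each pathway list. Rps25-ps1, Rps27a, Rpl39, Rpl36a-ps1, Rpl35a copies and the pseudogenes of other names were chosen after their values were seen. The members and lists were chosen with earlier results of these data known. Some items named by these rules are not reported here.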

Additional observations from a re-analysis of the deposited data

Results flagged for a closer look

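In 71 groups of 4 WT-labelled units, 1 unit stood far from the others 3 times, where chance gives about 1 in 20 such groups by Dixon's 95% criterion. Rpl23a-ps3 had 5.64 CPM in WT3 and 0 in the other WT-labelled units. Rps3a2 had 5.76 CPM in WT2, with 0.457 to 1.35 CPM in the others. The family sum of Rpl39 was 277 CPM in WT3, with 407 to 414 CPM in the others.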

How the results depend on the processing

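With the GC and length offset, 23 genes, 18 copies, 19 sums and 22 sums with copies of other names passed, and the medians were -0.30 over genes, -0.55 over copies and -0.29 over sums with copies of other names. That offset turned Rpl10a-ps1 to -0.55, Rpl26 to -0.57, Rpl31-ps8 to -0.56, Rplp1 to -0.66, Rps23-ps1 to -0.53 and the sum of Rplp1 to -0.67, all then called lower, and the sums of Rpl30 to 0.020 and Rps29 to -0.12, both without a call. The replicate block leaves out WT4, so its fits also hold fewer units. It called 6 of 85 genes, 3 of 82 sums and 553 of all 15564 genes tested (3.55%). Among them were 12 of the 25 members and 3 of the 9 sums called without it. The block with the offset, also without WT4, called 8 of 85 genes and 306 of all 15549 genes tested (1.97%). Among those it called were 13 of the 25 members and 4 of the 9 sums. The medians were -0.24 over genes, -0.47 over copies and -0.25 over sums with copies of other names. The sums stood at 0.024 for Rpl30 and -0.11 for Rps29. Units of the same number did not deviate together (correlations 0.03, -0.12 and -0.06), so the block pairs nothing known. limma on log2(TPM + 1), with 0.1 and with 5 called 7, 7 and 7 genes, 2, 2 and 2 sums, and 1162, 1038 and 1117 of all genes. DESeq2's Wald test called 3546 of all genes and 5 sums with copies of other names. With copies of other names 2 sums passed (Rps27, 1 of the 9, and Rpl39), and with Rps27rt joined to Rps27 1 passed (Rpl39, adjusted p = 0.0381), none of the 9. This put the sums of Rpl37a at -0.0079 (-0.0080 with Rps27rt) and Rps28 at -0.021 in both and made the difference in copy share 2.64 percentage points. The causes were not tested.

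Leaving out 1 unit gave 4 to 15 genes, 6 to 10 copies, 2 to 9 sums, 0 to 5 sums with copies of other names (11, or 13.4%, at an unadjusted p under 0.05 with all units, against 32.6% of all genes), 758 to 1905 of all genes, and copy share differences of 3.49 to 4.25 points. The medians ran from -0.14 to 0.03 over genes, -0.04 to 0.15 over copies and -0.12 to 0.03 over sums with copies of other names. Of 962 alternatives for 44 named members 873 kept direction and side of the threshold, as did 557 of 650 for 25 sums. Results without a call are among these, and staying without one counts as kept. Of the results that passed, 9 of 25 members and 2 of 9 sums passed whichever of the 7 units was left out.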
